A study of Caenorhabditis elegans with 12 samples.

Results

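The misfolded cpl-1* strain was compared with wild-type Caenorhabditis elegans by RNA sequencing of whole day 1 adult worms. The members are the genes of the authors' comparison of both strains whose status is OK, meaning that the quantification gave a usable comparison, and these were 16395 of 46217 gene identifiers. The series holds 12 samples of worms kept at 20 °C, with 3 each of wild type (strain PP1), cpl-1* (PP1386), rde-1(ne219); cpl-1* (PP2246, here the double strain) and cpl-1WT (PP1350), of which the last was not used here. The cpl-1* worms carry the integrated array hhIs113 on chromosome I, in which the promoter of the gut gene nhx-2 drives a tagged CPL-1 with the substitutions W32A and W35A (positions as the genotype label gives them). That label names gfp as the tag whereas the source label names yfp, and the genotype label of rde-1(ne219); cpl-1* gives the same array as W32A Y35A with YFP and a myo-2 promoter driving mCherry. The transgene is thus intestinal, while the RNA came from whole animals, in which fewer cells of a type and less RNA per cell cannot be told apart. The values are FPKM (fragments scaled to transcript length and to the number mapped), with 1 value per strain that the authors pooled over its samples. Neither a spread between replicates nor a test could therefore be computed, the depth is unknown, and each difference compares these pooled values only.

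CPL-1 is a cathepsin L-like protease that matures along the secretory route and works in the lysosome. CPL-1* does not fold properly, is held in the endoplasmic reticulum (ER) and is a substrate of ER-associated degradation (ERAD). The worm intestine that expresses it is the animal's gut, liver and fat store together: it digests bacteria with lysosomal proteases and lysozymes, secretes defence proteins, makes yolk for the oocytes, and breaks down stored fat through lysosomal lipases and mitochondrial beta-oxidation when food is short. The cuticle, by contrast, is a collagen coat secreted by the epidermis, and most of its collagens are made in pulses at the larval molts.

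Many more genes were higher than lower in cpl-1*. Of 13893 genes with a mean of at least 1 FPKM over both strains, 1712 (12.3%) were higher and 296 (2.13%) were lower by 2-fold or more, that is by a log2 ratio of at least 1 after 0.1 FPKM was added to each value. There were 5.78 genes higher for each gene lower, and the other 11885 lay between the thresholds. The median log2 ratio of all 13893 genes was -0.06. The genes lower in cpl-1* had a median of 6.32 FPKM in wild-type worms against 1.998 FPKM in cpl-1*, and 73 of them had a log2 ratio past 2. The genes higher in cpl-1* had a median of 1.25 FPKM in wild-type worms against 5.03 FPKM in cpl-1*, and 612 had a log2 ratio past 2. Members of gene families with similar sequences, such as msp, F-box, collagen and lectin genes, may share reads, and identifiers at 1 locus can repeat its value, so the 296 lower identifiers stand for 281 loci.

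**Figure D1:**
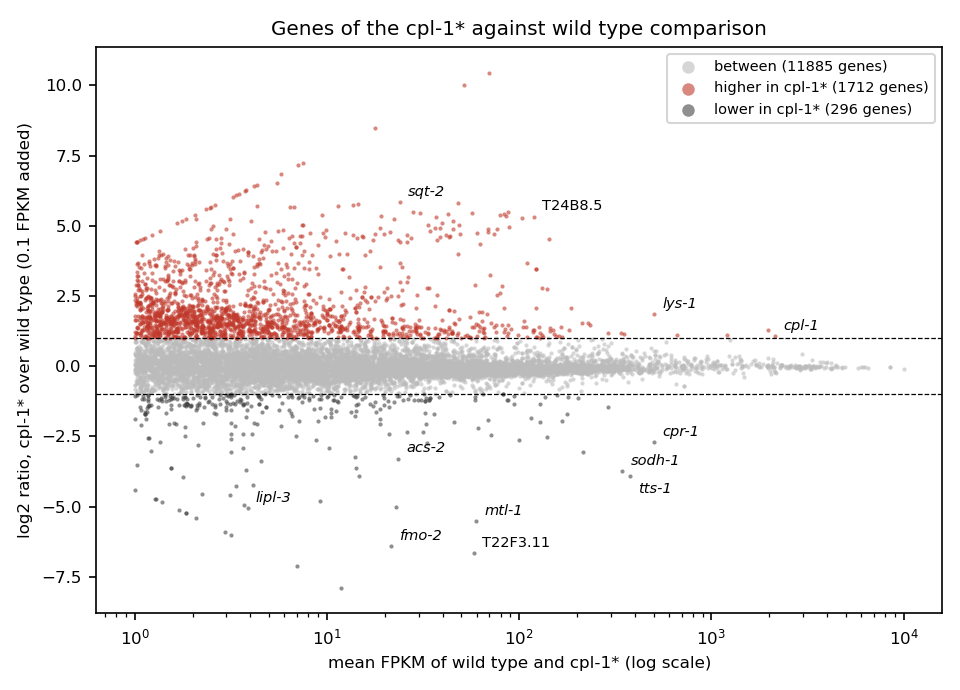
Each point is a gene, with the mean FPKM of both strains on a log axis against the log2 ratio of cpl-1* over wild type, and dashed lines mark log2 ratios of -1 and 1. The 1712 genes above the upper line far outnumber the 296 below the lower line, and the slanted rows of points at the edges are genes listed at 0 in either strain.

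The label of the strain was checked first. The cpl-1 gene (chromosome V:16592572-16595346 of WBcel235) stood at 1377 FPKM in wild-type worms against 2920 FPKM in cpl-1* (log2 ratio 1.08). This value counts mRNA of the endogenous gene and of the transgene together. The gene nhx-2, a sodium-proton exchanger whose promoter drives the transgene, had 24.8 and 33.2 FPKM, and myo-2, a pharyngeal myosin gene whose promoter serves as a marker, had 19.1 and 20.3 FPKM. A panel of 16 intestinal marker identifiers summed to 3708 FPKM in wild-type worms against 3991 FPKM in cpl-1*, with none past 2-fold. The panel includes piRNA identifiers that repeat the value of eps-8. Neuronal (11) and muscle (17) markers likewise had none past 2-fold. Of 13 epidermal marker identifiers 3 were higher, all of them cuticle collagen genes (rol-6, bli-1 and dpy-7), with log2 ratios of 5.76, 4.81 and 1.98, and the other 10 lay between the thresholds.

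The largest decreases included several strongly expressed transcripts. T22F3.11, a gene of the major facilitator transporter family (V:3612158-3614553), had 115.1 FPKM in wild-type worms against 1.05 FPKM in cpl-1* (log2 ratio -6.65). The flavin-containing monooxygenase gene fmo-2 (IV:10682524-10684367) had 42.7 FPKM in wild-type worms against 0.406 FPKM in cpl-1* (log2 ratio -6.40). The metallothionein gene mtl-1 (V:6691371-6691863), which encodes a small metal-binding protein, had 117 and 2.44 FPKM, a log2 ratio of -5.53. All 3 were thus abundant transcripts in wild type and stood at no more than 2.44 FPKM in cpl-1*. The noncoding RNA tts-1 (X:1504131-1504841), known to be abundant in long-lived daf-2 mutants and to bind ribosomes there, had 707 FPKM in wild-type worms against 47.03 FPKM in cpl-1*. The alcohol dehydrogenase gene sodh-1 (V:11888248-11889650) had 639 FPKM in wild-type worms against 47.6 FPKM in cpl-1* (log2 ratio -3.74). F53A9.8, a short coding gene on X, had 382 and 45.4 FPKM, and the secreted SCP/TAPS family gene scl-2 had 171 and 27.96 FPKM. Of the 296 lower genes, 37 had at least 50 FPKM in wild type.

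In the double strain, whose worms carry the same array with a loss-of-function allele of the Argonaute gene rde-1, the pooled values of these genes varied. T22F3.11 stood at 4.70 FPKM there, fmo-2 at 0.757 FPKM and mtl-1 at 4.74 FPKM. The tts-1 value was 86.4 FPKM and the sodh-1 value 168 FPKM, each between those of cpl-1* and wild type. F53A9.8 had 45.01 FPKM. The gene dod-3, named for lying downstream of DAF-16, had 57.8 FPKM in wild-type worms, 8.62 FPKM in cpl-1* and 1.41 FPKM in the double strain, and so was lowest in the double strain. The noncoding RNA W03D8.13 had 73.2 FPKM in wild-type worms, 18.4 FPKM in cpl-1* and 73.0 FPKM in the double strain. It is a short feature (I:2822737-2822836), on which few fragments can give a large FPKM.

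**Figure D2:**
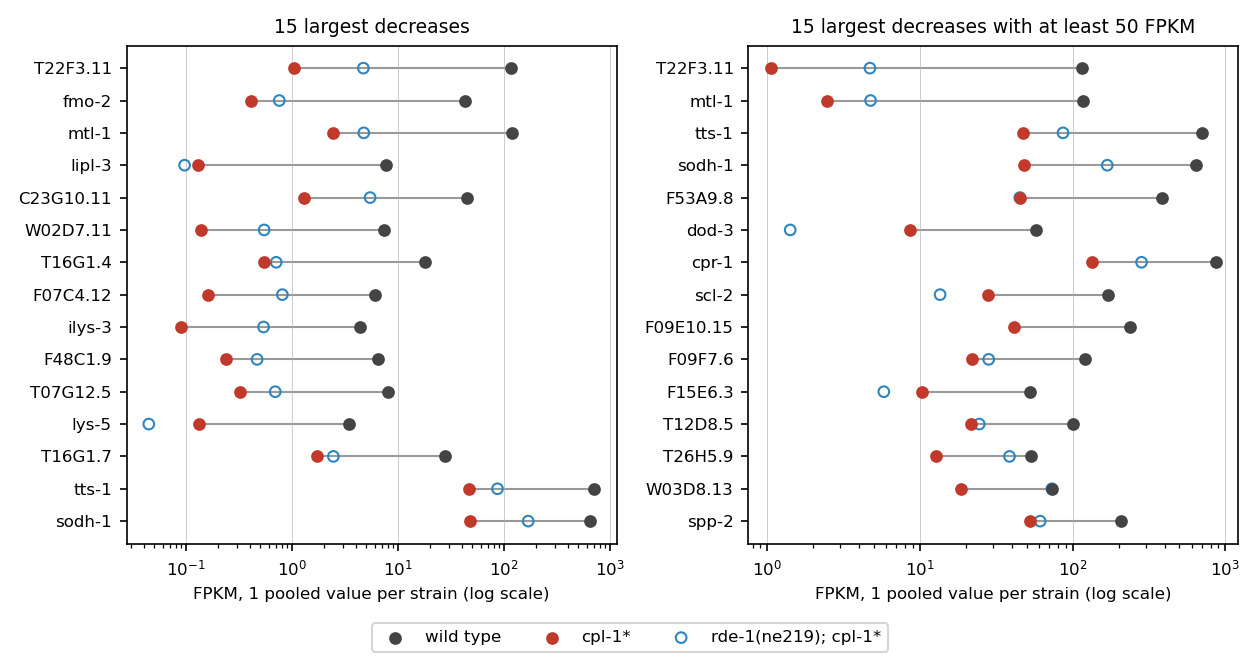
Pooled FPKM on a log axis in wild type (grey), cpl-1* (red) and rde-1(ne219); cpl-1* (open blue) for the 15 largest decreases among genes above 0 in both strains (left) and the 15 largest with at least 50 FPKM in wild type (right). The red points lie far left of the grey ones for every gene by construction, and the blue points fall between, beside or beyond them; F09E10.15 is listed at 0 in the double strain and has no blue point.

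Genes that mobilize fat were among the lower ones. The lysosomal lipase gene lipl-3 had 7.60 FPKM in wild-type worms against 0.130 FPKM in cpl-1* (log2 ratio -5.06). Its relative lipl-2 had 26.4 and 2.04 FPKM, and lipl-1 had 15.3 and 2.36 FPKM. All 3 lipases are known to be induced by fasting. A further lysosomal lipase gene, lipl-5, was on the other side, with 190 FPKM in wild-type worms against 300.4 FPKM in cpl-1*, short of 2-fold. The acyl-CoA synthetase gene acs-2, which feeds fatty acids into mitochondrial beta-oxidation and is a known target of the nuclear receptor NHR-49, had 42.8 FPKM in wild-type worms against 4.28 FPKM in cpl-1* (log2 ratio -3.29). Its value in rde-1(ne219); cpl-1* was 92.4 FPKM, above that of wild type. The gene icl-1, which encodes the glyoxylate cycle enzyme that lets worms build sugar from fat, had 265 FPKM in wild-type worms against 67.9 FPKM in cpl-1*. Among desaturases, fat-3, needed for long polyunsaturated fatty acids, had 184 and 71.7 FPKM (log2 ratio -1.36), whereas the stearoyl desaturase fat-6 had 299 and 307 FPKM and fat-7 had 58.4 and 30.8 FPKM.

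In a list of genes for lipid use in fasting, 7 of 18 past the expression filter were lower and 0 were higher, with a median log2 ratio of -0.46. This list was put together after the values had been seen, so its count is a description only. The lower genes were lipl-1, lipl-2, lipl-3, acs-2, icl-1, fmo-2 and rncs-1. Of these, fmo-2 encodes a flavin-containing monooxygenase and rncs-1 (log2 ratio -1.04) is a noncoding RNA. The list is thus not limited to enzymes of lipid use. A broader list of lipid-binding proteins, lipases and acyl-CoA genes held 8 lower (12.5%) and 7 higher (10.9%) genes of 64. Of all genes 2.13% were lower and 12.3% were higher, and the median log2 ratio of the broader list was -0.05. The genes of the known regulators of fasting lipolysis were between the thresholds. The lysosomal transcription factor gene hlh-30 had 33.6 FPKM in wild-type worms against 27.5 FPKM in cpl-1*, its antagonist mxl-3 had 66.2 and 49.7 FPKM, and nhr-49 had 73.5 and 67.3 FPKM.

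Several known targets of DAF-16, the FOXO transcription factor that is active when insulin signalling is low, were also lower. Besides mtl-1, sodh-1, icl-1, dod-3 and tts-1, these included lea-1, which encodes a late embryogenesis abundant-like protein of desiccation tolerance, with 187 FPKM in wild-type worms against 86.5 FPKM in cpl-1*. The small heat shock protein gene hsp-12.6 had 4.39 and 1.55 FPKM. Other known targets were between the thresholds. The mitochondrial superoxide dismutase gene sod-3 had 4.66 FPKM in wild-type worms against 6.22 FPKM in cpl-1*, the ferritin gene ftn-1 had 1.61 and 2.01 FPKM, and the catalase gene ctl-2 had 51.7 and 42.7 FPKM. Of 21 identifiers of the pathway and its targets, 7 (33.3%) were lower and 0 were higher, against 2.13% and 12.3% of all genes. This list was again set after the values had been seen, and its median log2 ratio was -0.32. The insulin receptor gene daf-2 had 29.9 and 19.4 FPKM and daf-16 itself had 69.2 and 59.8 FPKM, both between the thresholds.

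**Figure D3:**
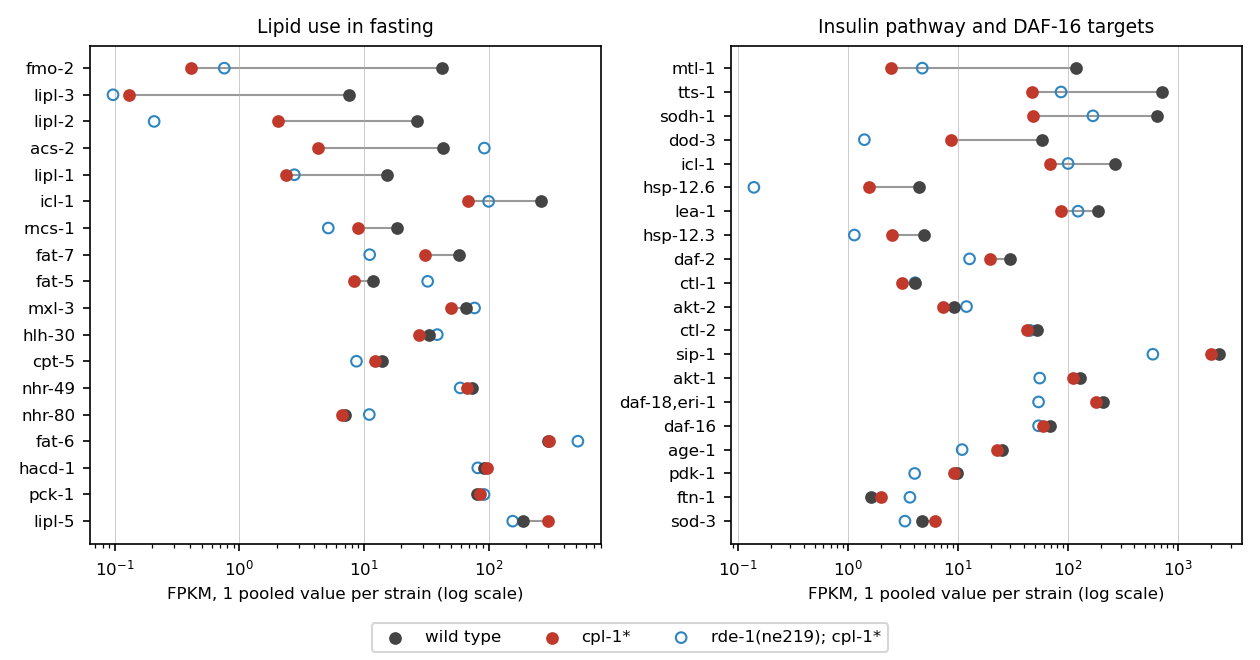
Pooled FPKM on a log axis in wild type (grey), cpl-1* (red) and rde-1(ne219); cpl-1* (open blue) for the genes past the expression filter in the list of lipid use in fasting (left) and in the list of the insulin pathway and DAF-16 targets (right), each sorted by the log2 ratio. The 7 lower genes of each list stand apart at the top, and the regulators below them (hlh-30, mxl-3, nhr-49, daf-16) lie close together in both strains.

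Proteases and defence genes of the gut went in both directions. The cathepsin B-like gene cpr-1, expressed in the intestine, had 869 FPKM in wild-type worms against 133 FPKM in cpl-1* (log2 ratio -2.71). Its relative cpr-4 had 424 FPKM in wild-type worms, 153 FPKM in cpl-1* and 497 FPKM in the double strain. A further relative, cpr-3, was higher, with 5.42 and 16.1 FPKM, and the abundant gut proteases asp-1 and cpr-6 were nearly level at 1929 and 2003 FPKM for asp-1 and 696 and 723 FPKM for cpr-6. Among 21 gut protease genes, 2 (9.52%) were higher and 2 (9.52%) were lower, against 12.3% and 2.13% of all genes.

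Lysozymes, which cleave bacterial cell walls, and the pore-forming saposin-like proteins also held genes of both directions. Of 27 such genes, 5 (18.5%) were lower, against 2.13% of all genes. Another 3 were higher, a share near the 12.3% of all genes. The gene lys-4 had 271 FPKM in wild-type worms against 82.9 FPKM in cpl-1*, and lys-5 had 3.44 and 0.132 FPKM. The invertebrate-type lysozyme gene ilys-3 had 4.38 FPKM in wild-type worms against 0.0892 FPKM in cpl-1*, the lowest level of these genes in cpl-1*. The saposin-like gene spp-2 had 206 and 52.2 FPKM. By contrast, lys-1 had 217 FPKM in wild-type worms against 787 FPKM in cpl-1*, and lys-2 had 36.3 and 244 FPKM. Of the named lysozyme genes, lys-1 and lys-2 were therefore higher, and lys-4, lys-5 and ilys-3 lower. The other 19 of the 27 genes lay between the thresholds. Summed over all 27, the level was 7580 FPKM in wild-type worms against 9009 FPKM in cpl-1*.

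C-type lectins, secreted sugar-binding proteins of which many respond to infection, held 35 higher (36.1%) and 10 lower (10.3%) genes of 97. Of all genes 12.3% were higher and 2.13% were lower. The largest among the lower ones by level was clec-266, with 80.2 FPKM in wild-type worms against 37.1 FPKM in cpl-1*. The gene clec-47 had 55.5 and 16.9 FPKM, and clec-82 had 2.25 and 0.189 FPKM. On the other side clec-63 had 415 FPKM in wild-type worms against 903 FPKM in cpl-1*, and clec-41 had 32.02 and 136 FPKM. All 10 identifiers of a list of CUB-like genes and T24B8.5 were higher, with a median log2 ratio of 2.53. The 10 include piRNA identifiers that repeat the values of C17H12.8 and F55G11.4, so they stand for fewer genes. T24B8.5, a ShK-domain gene used as a readout of the p38 kinase PMK-1, had 5.70 FPKM in wild-type worms against 233 FPKM in cpl-1* (log2 ratio 5.33). The CUB-like gene C17H12.8 had 20.1 FPKM in wild-type worms against 223 FPKM in cpl-1*. The infection response gene irg-5 had 1.90 and 22.2 FPKM, and dod-24, a further CUB-like gene, had 8.499 and 59.8 FPKM. In the double strain the values were 28.9 FPKM for T24B8.5, 39.2 FPKM for C17H12.8 and 3.80 FPKM for dod-24, each below that of cpl-1*. F55G11.4 of the same list was the other way, with 42.1 FPKM in cpl-1* and 80.8 FPKM in the double strain.

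Defence genes were also counted by their direct annotations in the authors' table. Of 52 genes annotated with defence against Gram-positive bacteria, 14 (26.9%) were lower, against the 2.13% of all genes. Another 7 (13.5%) were higher, near the 12.3% of all genes. The lower ones included lys-4, lys-5, ilys-3, spp-2, sodh-1, F53A9.8, clec-7, clec-82, clec-172, clec-218 and the thaumatin-like gene thn-2, which had 109 FPKM in wild-type worms against 28.7 FPKM in cpl-1*. The 7 higher ones were lys-1, lys-2, irg-5, lec-8, clc-1, gale-1 and drd-50. Of 95 genes annotated with defence against Gram-negative bacteria, 17 (17.9%) were higher and 3 (3.16%) were lower, against 12.3% and 2.13% of all genes. Of 247 innate immune response genes, 95 (38.5%) were higher and 6 (2.43%) were lower, the latter near the share of all genes. These terms were picked after the counts had been seen and share members, and no test was made on them.

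**Figure D4:**
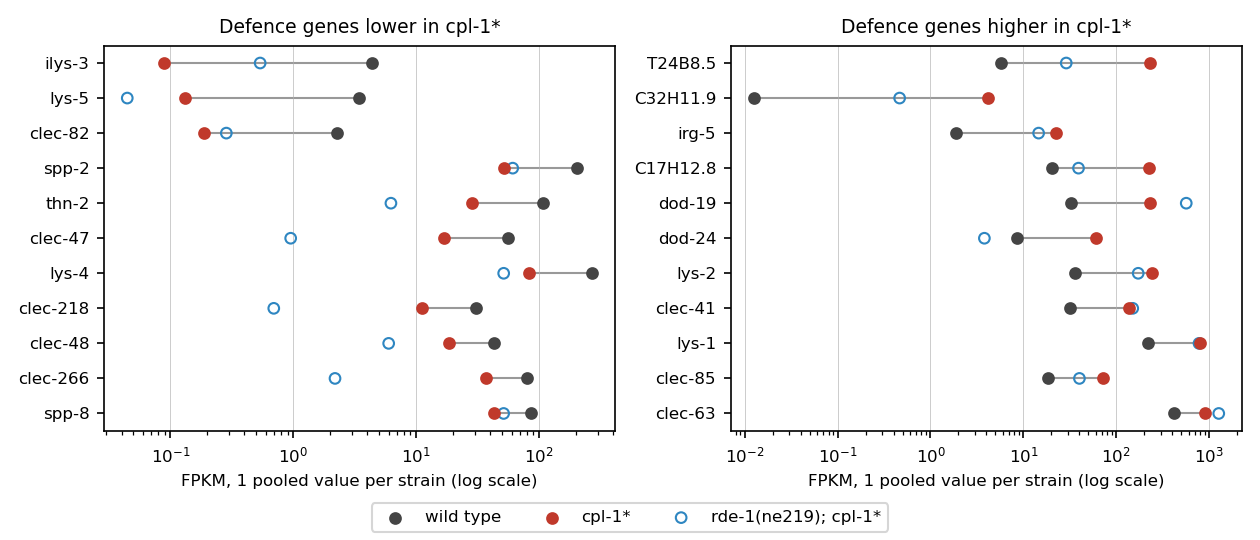
Pooled FPKM on a log axis in wild type (grey), cpl-1* (red) and rde-1(ne219); cpl-1* (open blue) for defence genes lower (left) and higher (right) in cpl-1*, chosen for display by their direction. Abundant genes occur on both sides, such as lys-4 at 271 and 82.9 FPKM and lys-1 at 217 and 787 FPKM in wild type and cpl-1*.

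Enzymes that modify foreign compounds and steroids were counted by family. Among 49 cytochrome P450 genes, 5 (10.2%) were lower and 1 (2.04%) was higher, against 2.13% and 12.3% of all genes. The gene cyp-34A9 had 35.6 FPKM in wild-type worms against 6.51 FPKM in cpl-1*, and cyp-37B1 had 6.89 and 1.21 FPKM. Among UDP-glucuronosyltransferases, which attach sugars to such compounds, ugt-18 had 7.15 FPKM in wild-type worms, 0.453 FPKM in cpl-1* and 7.63 FPKM in the double strain. In that family 3 of 57 genes (5.26%) were lower and 6 (10.5%) were higher, the latter near the 12.3% of all genes. Glutathione S-transferases had 6 higher (15%) and 0 lower of 40, again near the share of all genes, with gst-38 at 1.21 FPKM in wild-type worms against 34.2 FPKM in cpl-1*.

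Genes first used by the embryo formed a further group on the low side. Of 22 such genes, 11 (50%) were lower and 0 were higher, against 2.13% and 12.3% of all genes. This list was set after the values had been seen, and its median log2 ratio was -0.998. The mesodermal transcription factor gene hnd-1 had 8.33 FPKM in wild-type worms against 3.30 FPKM in cpl-1*, and the neuronal factor genes ceh-36 and cnd-1 had 5.34 and 2.07 FPKM and 3.48 and 1.40 FPKM. The gene hch-1, which encodes the protease that frees the larva from the eggshell, had 3.97 FPKM in wild-type worms against 1.78 FPKM in cpl-1*. Their levels were low in both strains, and with 1 FPKM added in place of 0.1 only 3 of the 22 stayed past 2-fold. Genes that act earlier were nearly level: 19 oocyte and eggshell genes had none past 2-fold and a median log2 ratio of -0.13, and 15 germline genes had none and a median of -0.13. The 5 vitellogenin genes that met the rule, which encode yolk proteins, summed to 6558 FPKM in wild-type worms against 6743 FPKM in cpl-1*. In the double strain hnd-1 stood at 0.262 FPKM and hch-1 at 0.0782 FPKM.

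Most sperm genes were higher. The product of major sperm protein genes drives the crawling of sperm and signals to the oocyte. Of 32 such genes, 29 (90.6%) were higher and 0 were lower, against 12.3% and 2.13% of all genes. The median log2 ratio of these 32 genes was 1.20. The gene msp-76 had 99.0 FPKM in wild-type worms against 211 FPKM in cpl-1*, and msp-33 had 70.5 and 184 FPKM. Of 31 other sperm genes 19 (61.3%, against 12.3% of all genes) were higher, among them ssp-16 with 11.45 and 36.5 FPKM. With 1 FPKM added only 12 of the other sperm genes stayed past 2-fold. The summed level of the major sperm protein genes was 1391 FPKM in wild-type worms against 3207 FPKM in cpl-1*. Of 9 identifiers of male markers, 2 passed the filter, clec-219 with 0.217 and 2.78 FPKM and clec-207 with 0.121 and 2.104 FPKM. Both passed it only through their value in cpl-1*, so their direction was fixed by the filter. The defining genes of male neurons were near 0 in both strains, with lov-1 listed at 0 and at 0.0119 FPKM and pkd-2 at 0.0502 and 0.109 FPKM.

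Many of the largest increases were those of cuticle genes. Of 139 collagen genes, 83 (59.7%) were higher and 0 were lower, against 12.3% and 2.13% of all genes. The median log2 ratio of the 139 genes was 2.34. The gene sqt-2 had 0.719 FPKM in wild-type worms against 47.1 FPKM in cpl-1* (log2 ratio 5.85). The body shape collagen gene dpy-13 had 3.68 and 172 FPKM, lon-3, which affects body length, had 0.336 and 22.5 FPKM, and the blister collagen gene bli-2 had 0.398 and 26.8 FPKM. The adult collagen gene col-19, in contrast, was nearly level at 1714 FPKM in wild-type worms against 1837 FPKM in cpl-1*. Summed over all 139 genes, collagen transcripts amounted to 44796 FPKM in wild-type worms against 55104 FPKM in cpl-1*, so the summed level differed far less than the median gene did. Of 81 other genes of molting, 37 (45.7%) were higher and 0 were lower, against the same shares of all genes. The hedgehog-related gene grl-16 had 1.89 FPKM in wild-type worms against 65.2 FPKM in cpl-1*, and mlt-8 had 5.58 and 31.4 FPKM. The epidermal regulator nhr-23, which drives the molting cycle, had 33.8 and 32.5 FPKM. In the double strain sqt-2 stood at 434 FPKM, dpy-13 at 1109.5 FPKM and grl-16 at 339.5 FPKM, the highest of the 3 strains for each.

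The genes that handle misfolded ER proteins gave different counts by list and by annotation. Of 14 ERAD identifiers none was past 2-fold, and the median log2 ratio was -0.08. The E3 ligase gene sel-11 had 90.6 FPKM in wild-type worms against 84.6 FPKM in cpl-1*, its partner sel-1 had 83.2 and 79.8 FPKM, and the segregase gene cdc-48.1 had 354 and 351 FPKM. Of 19 identifiers of the unfolded protein response of the ER, 1 (5.26%) was higher by 2-fold or more, below the 12.3% of all genes. This was ckb-2, a choline kinase gene of phospholipid synthesis, with 19.1 and 41.9 FPKM. The median log2 ratio of this list was 0.19, above that of the ERAD list, with a range from -0.35 for atf-6 to 1.13 for ckb-2. The ER chaperone gene hsp-4 served as a readout of ER stress in the paper. It had 214 FPKM in wild-type worms against 291 FPKM in cpl-1* (log2 ratio 0.44), short of 2-fold. Its value in the double strain was 1337 FPKM. The annotation term of the same response in the authors' table covers other genes, and of its 49 genes 18 (36.7%, against 12.3% of all genes) were higher and 0 were lower. The term was picked after the counts had been seen. Its higher genes included all 8 of its members from the abu and pqn families, which encode prion-like repeat proteins, such as abu-8 with 0.346 and 7.46 FPKM, and dsc-4, a microsomal triglyceride transfer protein gene, with 15.8 and 41.9 FPKM. The largest log2 ratio of the term, 5.26, was that of a collagen gene, col-109, with 1.04 FPKM in wild-type worms and 43.7 FPKM in cpl-1*. In the double strain col-109 stood at 268 FPKM and abu-8 at 44.2 FPKM. Of the 13 genes that the term shares with the list, ckb-2 was the only one higher. Of 20 genes of the exogenous RNAi pathway 1 (5%) was higher, also below the 12.3% of all genes. It was the gut double-stranded RNA importer gene sid-2, with 8.16 FPKM in wild-type worms, 19.2 FPKM in cpl-1* and 118 FPKM in the double strain. None of 84 ribosomal protein genes and none of 34 proteasome genes was past 2-fold, with medians of -0.03 and -0.02.

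**Figure D5:**
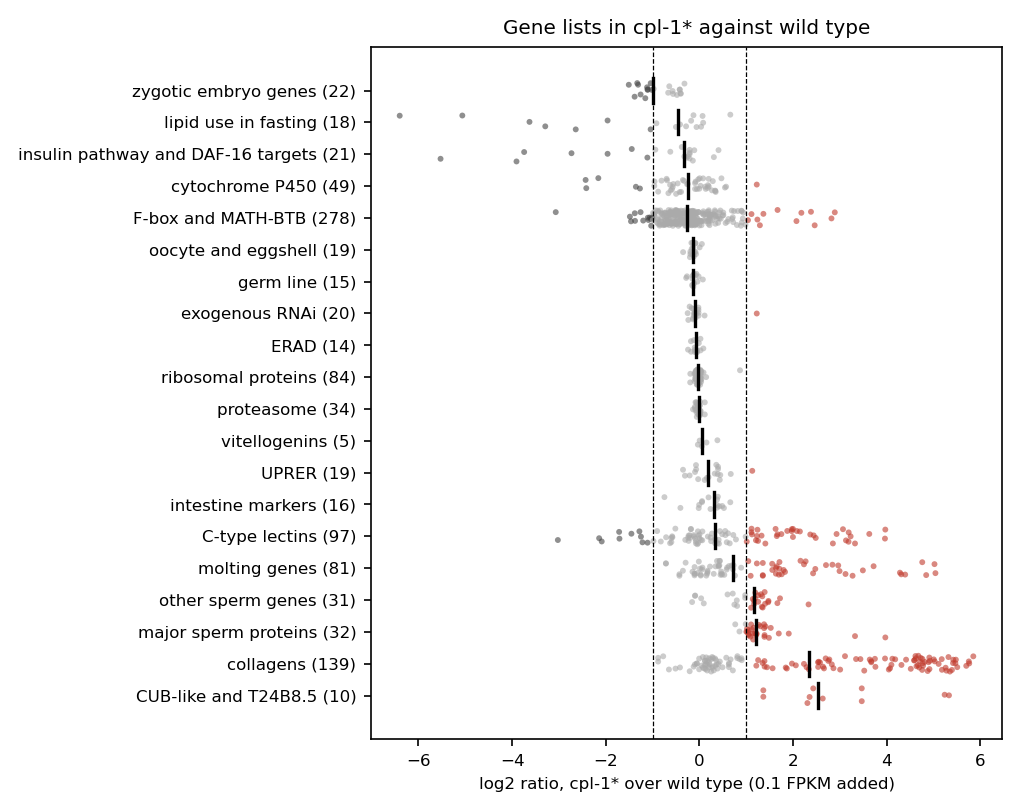
Log2 ratios of cpl-1* over wild type for the genes of 20 lists, with the number past the expression filter in parentheses, black bars at the medians and dashed lines at -1 and 1. Collagen, sperm and CUB-like genes lie to the right and the embryonic, fasting lipid and insulin lists reach to the left, while the ribosomal, proteasome and ERAD lists stay near 0.

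The lower genes were also described by features that the threshold had not used. Their share was 3.003% of 2564 genes on chromosome V, 2.96% of 1855 on X, 2.35% of 2557 on IV and 2.11% of 2414 on II, and it was smaller on I (1.19% of 2277) and III (1.15% of 2178). The higher genes were placed otherwise, with 18.1% on IV and 6.25% on X. The median annotated gene length was 1446.5 bp for the lower genes, 1449 bp for the higher genes and 2390.0 bp for those between the thresholds. Short length was therefore not particular to the lower genes. Protein-coding genes made up 254 of the 296 (85.8%), against 93.5% of all genes past the filter, and noncoding RNAs included, besides tts-1, the small RNA rncs-1, a known inhibitor of Dicer in the starved gut, with 18.5 and 8.92 FPKM. Runs of at least 3 neighbouring genes that were all lower occurred 4 times. On chromosome V, T16G1.7, T16G1.6 and T16G1.4 (12932941-12941847) had 27.6 and 1.72 FPKM, 9.41 and 2.08 FPKM, and 17.8 and 0.547 FPKM. A run of W02D7.11, W02D7.8 and clec-218 lay on the same chromosome (8302779-8310766). Runs of higher genes occurred 97 times, and a run of 8 on chromosome IV (12935011-12978343) held the CUB-like and dod genes C32H11.9, dod-21, dod-24, F55G11.8, dod-22, F55G11.2, F55G11.4 and dod-17.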

How the data were processed

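RNA was sequenced from 3 samples of each of 4 strains. Per the labels and the study's methods, the authors processed the reads with FastQC 0.11.7, HISAT2 2.1.0, StringTie 1.3.4d and Cuffdiff 2.2.1 on Ensembl release 91, and deposited 1 FPKM value per gene and strain, pooled over its samples, for 3 of the 4 strains. FPKM corrects for transcript length and for the number of mapped fragments, so a few very abundant transcripts can shift all others. The deposited table also holds the authors' fold changes, test statistics, p-values and q-values, which were not used. Of 46218 rows, 1 identifier listed again was used by its first row.

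The log2 ratio was computed as log2 of (cpl-1* FPKM + 0.1) over (wild type FPKM + 0.1). Genes with status OK and a mean of at least 1 FPKM were called higher or lower at a log2 ratio of at least 1 in size. This is a threshold on size and not a test, and because no value per sample was used, no error, interval or limit of detection is given. No tests of gene sets were made.

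The members, the 43 gene lists and 3 further lists were chosen with earlier results of these data known, the 3 further lists after the values had been seen. Named genes were cpl-1, nhx-2 and myo-2, the 15 largest decreases and increases above 0 in both strains, the same among genes with at least 50 FPKM, up to 4 members of each list per direction, all members of lists of at most 20 symbols, runs of at least 3 neighbouring genes, and genes with at least 5 FPKM listed at 0 in the other strain. Genes named outside this rule were chosen after their values were seen. These are thn-2, irg-5, clec-7, clec-172, lec-8, clc-1, gale-1, abu-8, dsc-4, col-109, hil-1, hil-6 and the genes named from the list of embryonic genes.

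Gene positions were taken from Ensembl release 115 (WBcel235), which holds 46042 of the 46217 identifiers. Computation used Python 3.11.15, pandas 2.3.3, matplotlib and numpy 2.4.6, and the calls were tested on simulated data. Alternatives were other pseudocounts, filters, thresholds and centring, 1 identifier per locus, and genes of any status. Those of coding genes only and without the cuticle, molting and sperm lists were chosen after seeing the data.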

Additional observations from a re-analysis of the deposited data

How the results depend on the processing

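The direction of the difference in number held throughout, with more genes higher than lower under each of the 11 alternatives, and no named gene changed sign past the threshold. With 1 FPKM added in place of 0.1, 176 genes were lower and 1319 were higher. Without the filter on low values 2592 were higher and 442 were lower. With a mean of at least 5 FPKM 618 were higher and 131 were lower. At a log2 ratio of at least 2 there were 612 higher and 73 lower genes, and at 0.5 there were 2592 and 1126. Ratios taken relative to the median of all genes, 0.01 FPKM added, genes of any status, 1 identifier per locus, coding genes only, and genes outside the cuticle, molting and sperm lists gave 1414 to 1779 higher and 253 to 313 lower genes. The last 2 of these were chosen after the data had been seen. Lists of scarce genes moved most, with the lower embryonic genes falling from 11 to 3 when 1 FPKM was added. The saposin-like gene spp-8, at a log2 ratio of -1.002, was on the threshold. No paired analysis was possible because each strain has 1 pooled value, and for the same reason no replicate could be left out. The depth per sample is unknown, so it cannot be said which differences of scarce genes the reads could resolve.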

Other observations

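Other regulators and signals were lower in small numbers. The linker histone gene his-24 had 277 FPKM in wild-type worms, 126 FPKM in cpl-1* and 50.2 FPKM in the double strain, and 3 of 26 histone genes were lower and 1 was higher. The higher one, the histone H3 variant gene his-70, had 1.47 and 7.31 FPKM. Of 170 nuclear hormone receptor genes 3 (1.76%) were lower, near the share of all genes, and 0 were higher. Among the lower ones was nhr-21 with 15.9 and 6.67 FPKM. Of 109 neuropeptide and insulin-like genes 5 (4.59%) were lower and 4 (3.67%) were higher, the latter below the share of all genes. The insulin-like gene ins-23 had 7.05 FPKM in wild-type worms against 1.61 FPKM in cpl-1*, whereas ins-7, a known agonist of the insulin receptor DAF-2, had 7.98 and 16.5 FPKM. F-box and MATH domain genes are a large family of substrate adaptors of ubiquitin ligases. Of 278 such genes 14 (5.04%) were lower and 12 (4.32%) were higher, against 2.13% and 12.3% of all genes. Their median log2 ratio was -0.26, and with 1 FPKM added only 3 were lower and 7 were higher.

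Further annotation terms were counted over all genes past the filter, so they can include members of the lists above. Protein tyrosine phosphatase activity stood at 39 higher (51.3%, against 12.3% of all genes) and 0 lower of 76. Peptidyl-serine phosphorylation stood at 51 higher (45.9%) and 0 lower of 111. In the same annotations 29 of 36 genes (80.6%) of the pseudopodium, the crawling organ of worm sperm, were higher. The overlap of the pseudopodium term with the major sperm protein genes, of which 29 of 32 were higher, was not counted. These terms were picked for their counts.

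Some short genes were listed at 0 in only 1 strain. At 5 FPKM or more in the other strain, 14 genes were listed at 0 in wild type and 4 in cpl-1*. The former included the antimicrobial peptide-like genes fip-3, fipr-16, fipr-19 and fipr-20, with 7.51, 8.69, 8.37 and 15.0 FPKM in cpl-1*. The latter were T19C4.24, T24A6.17, F29B9.13 and F28D1.13, with 23.6, 13.9, 6.30 and 5.91 FPKM in wild type. T19C4.24 and T24A6.17 had 23.01 and 13.5 FPKM in the double strain. The microRNA gene mir-2207 had 140 FPKM in cpl-1* and was listed at 0 in wild type and in the double strain. FPKM is scaled to length, so few fragments on such short features can give large values. A loss or return between strains can therefore not be read from them.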
